A study of Mus musculus with 2 samples.

Results

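Interferon-stimulated genes are the genes that cells switch on when an interferon binds its receptor, and 44 of them were examined on arrays of mDE6, which the labels describe as an odontogenic epithelial line of the mouse. The members were taken from a fixed list of gene names, and every non-control probe carrying one of these names was read. Of the 44 genes, 43 had a probe, 78 probes in all, among 37074 gene names on the array. Ifitm2 had no probe under that name. Each of the 78 probes was printed on 1 spot, and no spot was saturated.

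RNA of the mDE6 line was labelled with the dye Cy3 and hybridised to 1-colour Agilent arrays, 1 array of cells given DMSO as vehicle and 1 array of cells given CHIR99021 for 6 h. CHIR99021 blocks the kinase GSK-3, which otherwise marks β-catenin for breakdown, and the array experiment was made to find genes that respond to it. The labels write the dose as 5 mM and the paper as 5 μM, and the paper calls the control untreated. No genotype, strain or age is given for the cells in either group. With 1 array per group there was no test, and every difference between the groups is a difference between 2 arrays without a replicate check, in which treatment and the position on the slide cannot be told apart.

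On these arrays 8 of 8 mesenchymal markers were well above background on both arrays, whereas only 3 of 9 epithelial markers were so on the vehicle array (Krt14, Krt18 and Trp63). Cdh1 and Epcam, which define most epithelia, were not well above background on either array, which goes against the labelled cell type. Of 9 immune cell markers, 6 were well above background on both arrays (Ptprc, Cd3e, Itgam, Cd68, Csf1r and Siglech), and Adgre1, Flt3 and Nkg7 were so on neither. The summed signal of the epithelial markers was 2418 on the vehicle array and 3166 on the CHIR99021 array, of which Trp63 made up 2306 and 2896, and that of the mesenchymal markers 462794 and 418166, or 192011 and 175565 without Col1a2. The summed signal of the immune markers was 53308 on the vehicle array and 53560 on the CHIR99021 array, and 9457 and 8518 without Siglech, the brightest of them. Krt5, a keratin of basal epithelial cells, was the only one of these markers past both criteria, at 5.51 (not well above background) and 165, at least 7.24-fold higher on the CHIR99021 array, where its spot was uneven, with a pixel SD over mean of 0.323 against a limit of 0.261 for an even spot. The part of these cell types in the levels given here was not tested. Fewer cells of a type and less RNA per cell cannot be told apart on such arrays.

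Interferons bind receptors whose kinases phosphorylate STAT proteins. STAT2 joins IRF9 and a further STAT protein in a complex that binds a DNA motif called the interferon-stimulated response element (ISRE), while STAT dimers bind another motif, the gamma-activated site (GAS). The genes they switch on encode sensors of viral nucleic acid, proteins that block viral replication, and the machinery that loads peptides onto MHC class I. Many are also kept at a low level in cells that received no interferon.

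To show where these motifs lie, the 250 bases before the RefSeq start of each gene were searched on both strands. The ISRE core was searched as GAAANNGAAA and the GAS as TTCNNNGAA, and overlapping matches were counted. In GRCm38.p6, 35 of the 44 members had a promoter sequence. Some genes have several starts, and these 35 genes had 42 windows. The ISRE core was found in 11 of the 42 windows, each of a different gene, and in 2.98% of all 32851 promoter windows. The GAS was found in 8 of the 42 windows, again of different genes, and in 7.02% of all windows. The TCF core CTTTGAT, the motif read by the factors that β-catenin joins, was found in none of the member windows and in 3.21% of all windows. A match is only a run of letters. The promoters of Isg15, Ifit1 and Ifit3 are printed as examples of genes with more than 1 ISRE match, with the matches in capitals. Oas1a and Bst2 also hold overlapping pairs of matches and are not printed. The last sequence is the stretch between the starts of Psmb9 and Tap1, which run away from each other, and it is printed because both genes had low ratios; it holds no match to any of the 3 motifs, so it has no capitals.
Isg15, chr4:156200819-156201068, minus strand: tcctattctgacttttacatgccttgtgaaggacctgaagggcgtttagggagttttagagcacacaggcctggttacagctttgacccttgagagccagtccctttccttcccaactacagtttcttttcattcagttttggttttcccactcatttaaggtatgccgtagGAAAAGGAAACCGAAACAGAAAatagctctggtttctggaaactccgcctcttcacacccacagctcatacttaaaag
Ifit1, chr19:34640639-34640888, plus strand: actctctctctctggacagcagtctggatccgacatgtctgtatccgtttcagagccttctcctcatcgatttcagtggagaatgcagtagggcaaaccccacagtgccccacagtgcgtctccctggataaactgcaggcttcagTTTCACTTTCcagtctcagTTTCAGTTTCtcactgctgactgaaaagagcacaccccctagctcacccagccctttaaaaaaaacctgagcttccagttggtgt
Ifit3, chr19:34583279-34583528, plus strand: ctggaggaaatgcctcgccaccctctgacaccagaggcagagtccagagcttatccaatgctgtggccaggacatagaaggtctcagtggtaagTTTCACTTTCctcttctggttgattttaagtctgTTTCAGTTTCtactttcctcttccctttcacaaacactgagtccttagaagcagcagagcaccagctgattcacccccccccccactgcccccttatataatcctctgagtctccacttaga
Psmb9 to Tap1, chr17:34187331-34187555, plus strand: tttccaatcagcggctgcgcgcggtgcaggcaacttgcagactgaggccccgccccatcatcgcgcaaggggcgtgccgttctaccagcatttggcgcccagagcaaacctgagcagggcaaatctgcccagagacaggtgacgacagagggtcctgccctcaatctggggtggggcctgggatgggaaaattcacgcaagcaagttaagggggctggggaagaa

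Most of the interferon-stimulated genes were measurable in cells given the vehicle alone. At least 1 probe was well above background for 41 of the 43 genes (95.3%), whereas the same held for 48.9% of all gene names on the array. The names on the array include unnamed intergenic RNAs. The 43 genes had 78 probes and the 37074 names 56605, and more probes per gene raise such a count. The part of these in the contrast was not tested. The same count of 41 was found on the CHIR99021 array. The exceptions were Oas3, a synthetase of the 2-5A second messenger, and Mx1, a GTPase that blocks influenza viruses. The single Oas3 probe read 5.49 and 6.14, and the Mx1 probes read 16.9 and 5.43 on the vehicle array and 10.2 and 5.95 on the CHIR99021 array. Both Mx1 probes overlap on chromosome 16, so they are not independent. Of the 78 probes, 60 were well above background on both arrays, 2 on the vehicle array only and 16 on neither.

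After CHIR99021 no interferon-stimulated gene met both criteria used here, by which a gene was lower at a ratio of at most 0.66 with a Z-score of at most -2. The study's methods print the Z-score limit for lower genes as 2 without a minus sign and do not define the Z-score. Read as printed, that limit would add nothing to the ratio for the 6 members at or under 0.66, which would then be lower. The ratio is the signal on the CHIR99021 array over that on the vehicle array, each divided by the 75th percentile of its array (469.2 and 486.7). The Z-score was defined here as the log2 ratio minus the mean, over the SD, of the 500 probes nearest in mean signal. Among the 41 genes tested, 0 were lower, against 3.22% of all 18837 genes. The mirror criteria for a higher gene (1.5 for the ratio, 2 for the Z-score) were met by 0 of the 41, against 2.63% of all genes. At these shares a list of 41 genes would hold few such genes, so the counts of 0 are no result about the list. Under some processing alternatives 1 gene was lower, Irf7 under 4 of them and Ifitm1 under 2. The authors' table and quantile normalization, both among the 4, gave nearly identical ratios and are in effect the same alternative. Where 1 member was lower, 2.81% to 3.39% of all genes were lower. The median and MAD in the Z-score gave 5 lower genes and 1 higher, against 5.35% and 4.73% of all genes. The Z-scores of the members lay between -1.90 and 1.73. By the ratio alone, 6 of the 41 genes (14.6%) were at or under 0.66, against 9.67% of all genes, and 2 (4.88%) were at or over 1.5, against 8.05% of all genes. The other 33 lay between these ratios.

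As a group the genes lay slightly under the rest. The median ratio of the 41 genes was 0.952, against 1.02 for all genes, and 26 of them (63.4%) were below 1, against 46.6% of all genes. The quartiles of the log2 ratio were -0.44 and 0.10 for the members and -0.22 and 0.24 for all genes. Ratios from 0.8 to 1.25 were found for 23 of the 41 genes (56.1%) and for 62.0% of all genes. A further list of interferon-stimulated genes, 21 of them tested, had a median ratio of 0.921, so the shift is not particular to the members. No test was made of this shift.

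**Figure D1:**
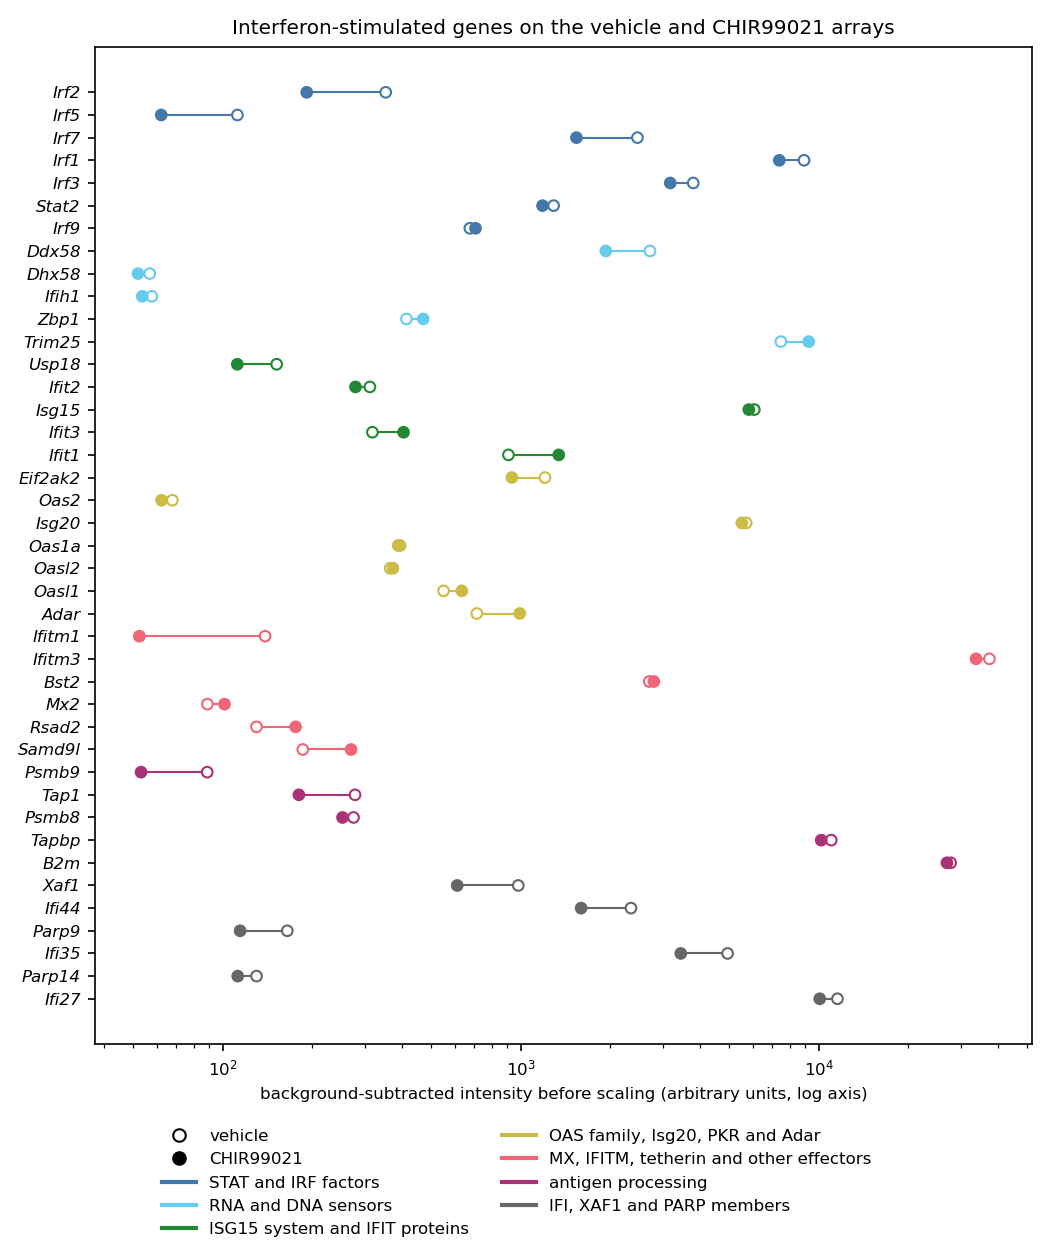
Signal of each tested interferon-stimulated gene at its brightest probe, in arbitrary units before scaling on a log axis, with open circles for the vehicle array and filled circles for the CHIR99021 array, 1 array each. Most pairs lie close together, and the widest gap is that of Ifitm1, from 139 to 52.6; levels of different genes cannot be compared, since they come from different probes.

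Among the transcription factors, 6 of 7 had a ratio below 1, with a median of 0.857, against 46.6% and 1.02 for all genes. Irf7, the factor that amplifies the type I interferon response, read 2466 on the vehicle array and 1539 on the CHIR99021 array. Its ratio was 0.647, and its Z-score of -1.90 was the closest of all members to the criterion of -2. The second Irf7 probe read 98.5 and 56.3, a ratio of 0.593. The Irf7 probes lie on chromosome 7 in mm9, at 148449104 to 148449163 and between 148450664 and 148451014. Irf2, which competes with Irf1 for the same sites, read 353 and 191, a ratio of 0.563 (Z-score -1.76). Irf5, a factor downstream of Toll-like receptors, read 112 and 62.2, a ratio of 0.576 (Z-score -1.15). The other probes of Irf2 and Irf5 were not well above background on either array, so each ratio rests on 1 spot.

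The remaining factors were closer to 1. Irf1 read 8935 and 7379, a ratio of 0.857, and its second probe gave 0.853. Irf3, a factor activated downstream of the viral sensors through adaptors and kinases, read 3795 and 3177, a ratio of 0.868, and its second probe gave 0.979. Stat2 read 1290 and 1184, a ratio of 0.952. Irf9 read 676 and 706, a ratio of 1.08, and its second probe gave 1.12. The transcripts of Stat2 and Irf9 thus had ratios within 0.8 to 1.25.

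Of the sensors, Ddx58, which encodes the RNA sensor RIG-I, read 2717 and 1932, a ratio of 0.738 (Z-score -1.67). Its other probes measured on both arrays gave 0.777 and 0.710, and the remaining probe was well above background on the vehicle array only, which limits its ratio to at most 0.790. The 3 Ddx58 probes measured on both arrays had a lower signal on the CHIR99021 array, and the remaining probe passed the filter only through the vehicle array, so its direction adds nothing. Ifih1 (the RNA sensor MDA5) read 57.9 and 53.7, and Dhx58, a helicase that regulates both sensors, read 56.9 and 52.0. Their ratios were 0.963 and 0.947. Zbp1, a sensor of left-handed nucleic acid, read 414 and 471, a ratio of 1.18. Trim25, the ubiquitin ligase that acts on RIG-I, read 7469 and 9262, a ratio of 1.29 at a probe that matched no RefSeq transcript. The probes that matched Trim25 gave 1.15, at 7106 and 7845, and 0.844, at 72.9 and 59.3. Trim25 was the only gene whose probes measured on both arrays differed by more than 1.5 times.

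Among the ISG15 system and the IFIT proteins, Isg15, a ubiquitin-like protein conjugated to other proteins, read 6085 and 5831. Its ratio was 0.994. Usp18, the protease that removes ISG15, read 152 and 112, a ratio of 0.765. Ifit1, which binds viral RNA that lacks the host's cap methylation, read 910 and 1343. Its ratio of 1.53 was the highest of the members, as was its Z-score, 1.73. Ifit3, which forms a complex with Ifit1, read 318 and 405, a ratio of 1.32. Ifit2 read 312 and 279, a ratio of 0.928. The 3 Ifit genes, all on chromosome 19, therefore did not lie on the same side of 1, at 1 probe each.

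In the OAS family, which activates RNase L, Oas1a read 388 and 394, a ratio of 1.05. The Oas1a probe also lists a transcript of Oas1g, so these paralogs cannot be told apart. Oas2 read 67.8 and 62.4, a ratio of 0.954. Oasl1 read 551 and 635, a ratio of 1.19, with 1.40 at the second probe, and Oasl2 read 365 and 373, a ratio of 1.06. Isg20, an exonuclease, had a ratio of 1.00 at signals of 5711 and 5526, and its second probe read 1730 and 1630, a ratio of 0.977. Eif2ak2, the kinase PKR that halts translation when it binds double-stranded RNA, read 1207 and 934, a ratio of 0.803. Adar, which edits adenosine in double-stranded RNA, read 713 and 993, a ratio of 1.45. The second Adar probe read 100 and 102, a ratio of 1.06. Of the 7 tested genes of this group, 5 were above 1 and 2 below it, against 46.6% of all genes below 1. The 5 include Isg20, which was below 1 under 6 processing alternatives.

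The widest difference among all members was that of Ifitm1, a membrane protein that hinders viral entry. It read 139 on the vehicle array and 52.6 on the CHIR99021 array, a ratio of 0.393 or a log2 ratio of -1.35. Its Z-score was -1.87, since the SD of the log2 ratio among the 500 nearest probes was 0.72 at this signal. Ifitm1 has 1 probe, on chromosome 7 at 148155659 to 148155718 in mm9, and its spot lies in row 275 of 384. Past row 192 of these arrays 22.6% of all genes were past a ratio of 0.66 or 1.5, against 12.3% in the earlier rows, and the part of this position in the value was not tested. The related Ifitm3 read 37422 and 33750, a ratio of 0.936, so these related genes differed in ratio.

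Bst2, the tetherin that holds budding virus on the cell surface, read 2703 and 2799, a ratio of 1.07. Mx2 read 88.9 and 101, a ratio of 1.18, with an uneven spot on the CHIR99021 array. Rsad2, which encodes viperin, read 130 and 176, a ratio of 1.40. Samd9l, a relative of the antiviral and growth-restraining SAMD9, read 186 and 270, a ratio of 1.51 (Z-score 1.33). Its spot on the CHIR99021 array was uneven, with a pixel SD over mean of 0.320 against a limit of 0.261, the higher of the 99th percentiles that the 2 arrays had over detected spots up to row 192.

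The antigen processing genes were near 1 except for Tap1 and Psmb9. B2m, the light chain of MHC class I, read 27739 and 26945, a ratio of 1.01, with 1.18 at its second probe, and Tapbp, which bridges MHC class I and the peptide transporter, read 11025 and 10201, a ratio of 0.960, with 0.891 at its second probe. Psmb8, a subunit of the immunoproteasome, read 275 and 253, a ratio of 0.953. Tap1, a subunit of the transporter, read 278 and 180, a ratio of 0.672, and its second probe, with an uneven spot on the CHIR99021 array, gave 0.708. Psmb9, the immunoproteasome gene that shares the printed stretch of 225 bases with Tap1, read 88.8 and 53.2, a ratio of 0.622. The SD of the log2 ratio among the probes nearest in signal to that of Psmb9 was 1.03, so its Z-score was only -0.62. Its other probe was well above background on the vehicle array only, on an uneven spot (pixel SD over mean 0.321), and it passed the filter only through that array, so its limit of at most 0.894 adds nothing on direction.

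All 6 genes of the last group, the IFI genes, Xaf1 and the PARP genes, had a ratio below 1, with a median of 0.721. Of all genes 46.6% were below 1, and their median was 1.02. The group is small and mixed and was not tested, so this is no result about a class of genes. Xaf1, which binds the inhibitor of apoptosis XIAP, read 982 and 613, a ratio of 0.647 (Z-score -1.80), and its second probe read 769 and 501, a ratio of 0.675. The probes lie in row 343 and row 91, so both parts of the array gave a like value. Ifi44 read 2346 and 1596, a ratio of 0.706, with 0.733 at its second probe. Ifi35 read 4949 and 3447, a ratio of 0.723, with 0.710 at its second probe. Ifi27 read 11567 and 10086, a ratio of 0.905, with 0.871 at its second probe. Parp9 and Parp14, ADP-ribosyltransferases that interact, read 165 and 114 and 130 and 112, ratios of 0.720 and 0.897, and a second Parp9 probe gave 0.988.

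**Figure D2:**
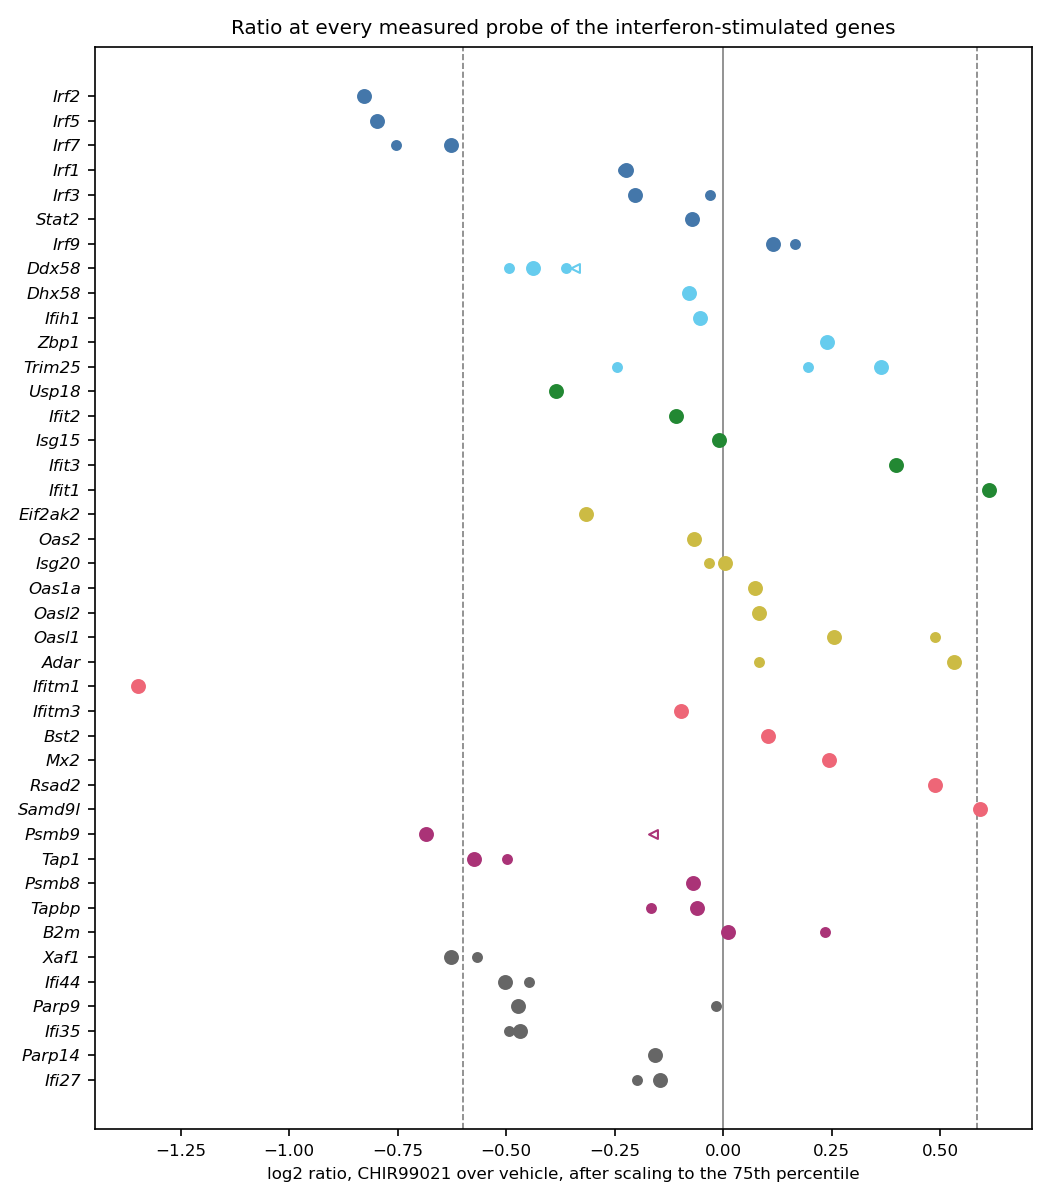
Log2 ratio of CHIR99021 over vehicle at every measured probe, 1 row per gene in the order and colours of the plot of signals; large circles mark the brightest probe, small circles other probes and open triangles upper limits. Dashed lines mark ratios of 0.66 and 1.5, and probes of the same gene lie close together for Irf7, Xaf1, Ifi44, Ifi35 and Tap1, whereas those of Trim25 spread from 0.844 to 1.29.

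Where a gene had several probes measured on both arrays, the probes gave like ratios. This was so for 16 of 17 genes within 1.5 times, with a median of 1.08 times between the lowest and the highest ratio. Of the 17 genes, 15 had all probes on the same side of 1. Since 62.0% of all genes lay from 0.8 to 1.25, probes of different genes would often be as close. The same share over all genes was not counted, so this closeness is no check of the ratios. Probes of a gene share the same RNA and arrays, so they measure the error of the spot and the probe and not that of the cultures. Among 282 probes printed 10 times, the SD of the log2 ratio between spots had a median of 0.03, but 273 of these had a vehicle signal of at least 2000. For the 2 probes under 100 it was 0.21, and for the 3 from 100 to 400 it was 0.09. The spot error of the members was not measured, since each of their probes is on 1 spot. By these few dim probes it may be wider for Psmb9, Irf5 and Ifitm1 than for Irf7 or Ifi35.

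**Figure D3:**
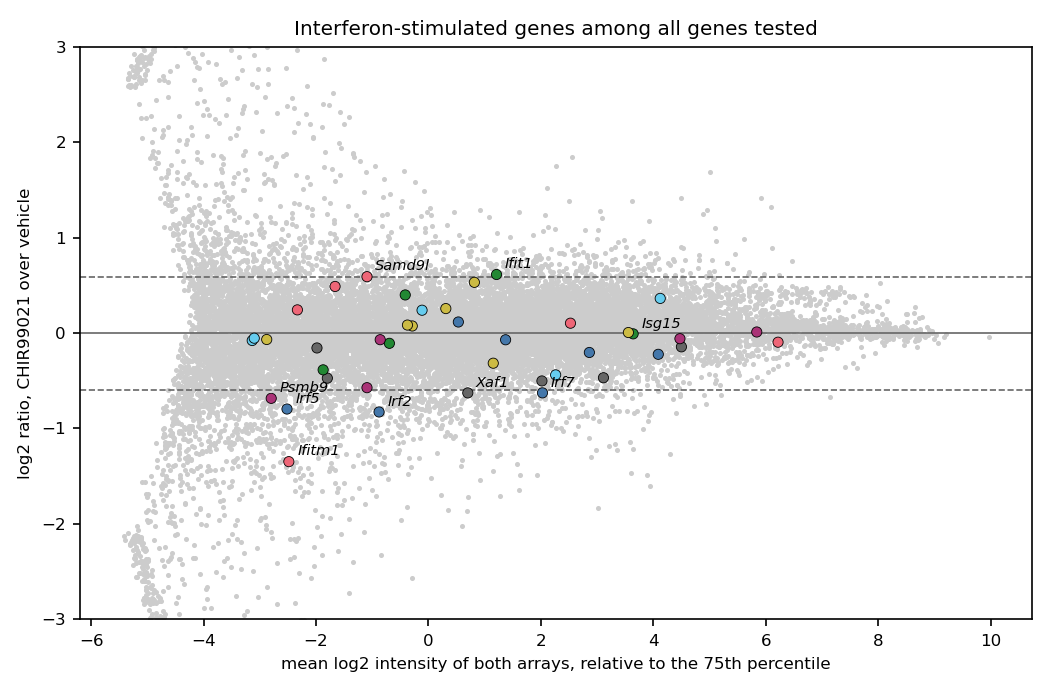
Log2 ratio against the mean log2 intensity of both arrays for all 18837 genes tested (grey, 608 of them outside the vertical range) and the 41 interferon-stimulated genes (coloured as in the plot of signals). The spread of the grey points widens at low intensity, and the named genes past the dashed lines at 0.66 and 1.5 lie within the grey cloud.

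The rows past 192 held 18 of the 41 genes at their brightest probe (43.9%), against 52.3% of all genes. Of the members past a ratio of 0.66 or 1.5, Ifitm1, Irf2, Irf5, Xaf1 and Samd9l lay in the later rows, while Psmb9, Irf7 and Ifit1 lay in the earlier rows.

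When the members were set beside their promoter letters, the 9 tested genes with an ISRE core had a median ratio of 1.05, from 0.563 for Irf2 to 1.53 for Ifit1. The 24 tested genes whose window lacked it had a median of 0.898, from 0.393 for Ifitm1 to 1.51 for Samd9l. Of the former 6 were above 1 (B2m, Bst2, Ifit1, Ifit3, Oas1a and Rsad2), and of the latter 7, where B2m was below 1 under 4 processing alternatives and Isg20, among the 7, under 6. The ranges overlap.

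The rest of the interferon pathway was taken from a fixed list. Of 57 further genes with a probe, 44 were tested, with a median ratio of 0.985. By list, the median was 0.921 for 21 other interferon-stimulated genes, 0.944 for 8 receptors and kinases and 0.968 for 2 ligands. It was 1.06 for 6 inhibitors and 1.20 for 7 sensors and adaptors. By both criteria 1 was lower and 1 was higher, close to what the shares over all genes (3.22% and 2.63%) give for a list of this size, so these counts are no result about the list. The lower gene was Tap2, the partner of Tap1 in the peptide transporter, which read 1779 and 1076, a ratio of 0.628 (Z-score -2.04). The higher gene was Mb21d1, which encodes the DNA sensor cGAS, and it read 2090 and 3242, a ratio of 1.61 (Z-score 2.09). Both lie just past the criteria.

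Of the interferon ligands, 2 of 9 had a probe well above background on the vehicle array, both dim: Ifnl3 read 41.1 and 43.0, and Ifna1 read 27.6 and, not well above background, 23.0. Ifnb1 and Ifng were not well above background on either array. The receptors and kinases were measured for 8 of 9 genes. Ifnar1 and Ifnar2, the chains of the type I interferon receptor, had ratios of 1.04 and 1.00, Ifngr1 of the type II receptor had 0.826, and Jak1 had 0.953. Tyk2, a kinase of the type I receptor, read 136 and 89.3, a ratio of 0.682, the lowest of the receptors and kinases. Of the 6 inhibitors none met a criterion, and their ratios lay between 0.886 for Pias1 and 1.31 for Socs1, which blocks the JAK kinases. Of the sensors and adaptors, Tmem173, the adaptor STING that acts downstream of cGAS, had the lowest ratio at 0.699 (Z-score -1.47), with signals of 635 and 428. Ticam1, the adaptor of TLR3, had a ratio of 1.55 (Z-score 1.67). Among the other interferon-stimulated genes, Iigp1, an interferon-inducible GTPase, had 1.52 (Z-score 0.71) at dim signals of 62.5 and 91.4.

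**Figure D4:**
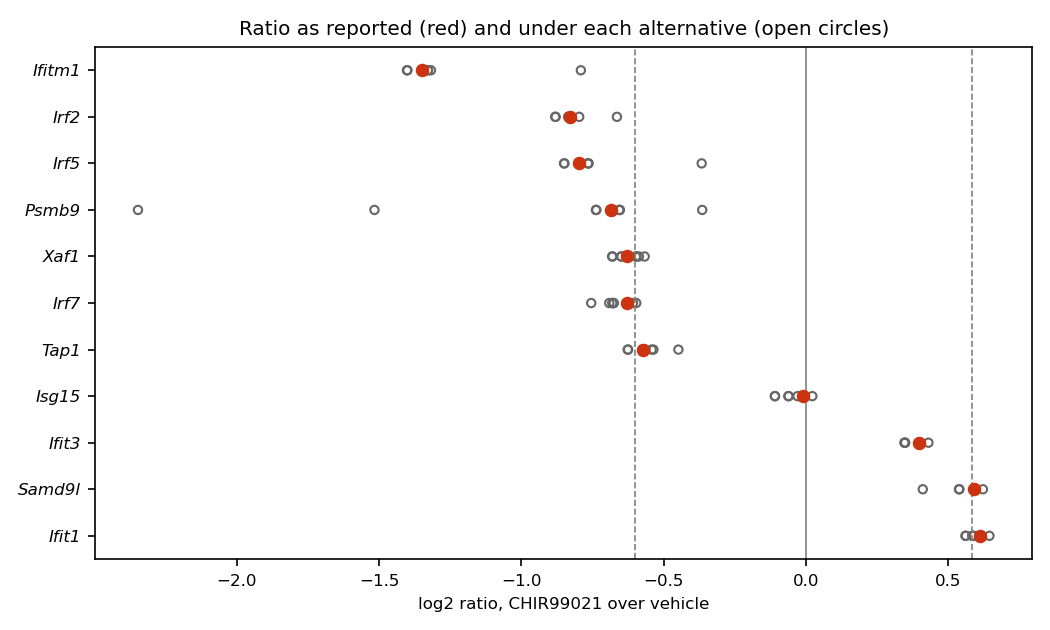
Log2 ratio of 11 interferon-stimulated genes as reported (red) and under each processing alternative that gave a value (open circles), with dashed lines at ratios of 0.66 and 1.5. Every gene but Isg15 stayed on its side of 0, and the lowest points of Psmb9 come from a probe that was not well above background after CHIR99021.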

How the data were processed

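For each array the authors deposited the scanner output, in which the Cy3 intensity of a spot is background subtracted but not normalized between arrays. The file headers name Feature Extraction 10.7.1.1 and build mm9, whereas the submitters' processing notes name version 9.5.1.1. A further table holds the authors' normalized intensity for both arrays, by a method not given in the sources used here, and served as an alternative. Its ratios were nearly identical to those after quantile normalization. The deposited flags mark spots well above background.

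Outlier spots were left out, spots of a probe were averaged, and each log2 intensity was centred on its array's 75th percentile (Python 3.11.15, with pandas 2.3.3, numpy 2.4.6 and, for figures, matplotlib 3.10.9). The criteria were applied to 28066 of 56605 probes, those well above background on either array, and a gene was read at its probe with the highest mean signal. Of 78 member probes, 65 matched RefSeq transcripts of the same symbol, 12 matched none and 1 matched 2 symbols; the array's names were kept. Probe positions were copied from the array files (mm9), and promoters come from RefSeq tables of GRCm38.p6. Calls were tried on simulated data, with the tails of the spread drawn in. That trial checks the code and not the counts given here. Alternatives changed the scaling, the background correction (normexp with an offset of 50, limma 3.58.1, R 4.3.3), the filter, the floor, the probe of a gene, the Z-score and the spots used.

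All members were accounted for. Signals and ratios at the brightest probe were given for members well above background on the vehicle array or with any probe outside ratios of 0.66 to 1.5, with ratios at further measured probes, and probes differing by over 1.5 times were named. Other pathway genes were counted, with values for those past a criterion or at the extremes. From the cell type marker lists 2 genes are not reported here. The members and lists were chosen with earlier results of these data known.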

Additional observations from a re-analysis of the deposited data

How the results depend on the processing

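No paired analysis was possible because each group has 1 array; for the same reason no replicate could be left out. The count of 0 lower genes became 1 with quantile normalization, normexp, the authors' normalized table and the earlier rows alone (Irf7 each time). The table and quantile normalization are in effect the same alternative. It became 1 when a probe had to be measured on both arrays and without uneven spots (Ifitm1 each time). Under these settings 2.81% to 3.39% of all genes were lower. With the median and MAD 5 were lower (Irf2, Irf5, Irf7, Ifitm1 and Xaf1), against 5.35% of all genes. With the ratio alone 6 were lower, against 9.67%. The count of 0 higher genes became 1 with the median and MAD (Ifit1), against 4.73% of all genes. With the ratio alone it became 2 (Ifit1 and Samd9l), against 8.05% of all genes. Some of these settings test fewer probes or drop the Z-score; otherwise the cause was not tested. The median log2 ratio of the members, -0.07, became -0.11 with quantile normalization and with the authors' table, and -0.12 both without scaling and with the percentile taken over commonly detected probes. With median scaling it became -0.039. The median over all genes was then -0.01 with quantile normalization and with the table, -0.03 with the next pair and 0.06 with median scaling, above that of the members each time. All 8 genes past a ratio of 0.66 or 1.5 stayed on their side of 1 under the alternatives that gave a value. Of the 41 genes 35 did so. The normexp correction moved the ratio of Ifitm1 to 0.578, that of Irf5 to 0.776, that of Psmb9 to 0.777 and that of Samd9l to 1.33. Signal over background limits 2 member probes to a bound and leaves 16 without a value.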
